A study of Schizosaccharomyces pombe with 12 samples.

Results

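The genes described here encode the protein subunits of the mitochondrial ribosome of fission yeast, Schizosaccharomyces pombe. They were chosen by name: every gene whose PomBase name is mrpl, mrps, mrp or rsm followed by a number. This rule matched 60 of 12683 genes in the count table, of which 31 carried the stem mrpl, 8 mrps, 12 mrp and 9 rsm. RefSeq products, with name stems where those were silent, placed 58 of the 60 in the mitochondrial ribosome. Of these, 35 were placed in the large subunit and 23 in the small subunit. The products of mrpl50 and mrps26 name no ribosome, and that of mrps9 does not say which subunit, so their name stems were used. The other 2 of the 60 went against the label: mrp1 is the RNA of RNase MRP, and rsm1 is an RNA export factor. They are given separately at the end, and all counts of mitoribosomal genes below are out of 58. A further 20 mitoribosomal genes carry names outside the rule and served for comparison.

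Mitochondria translate the few proteins encoded in their own genome, which in yeasts are mainly core subunits of the respiratory chain and of the ATP synthase, on a ribosome of their own. Nearly all of that ribosome's proteins are encoded in the nucleus, made in the cytosol and imported, so their transcripts are polyadenylated nuclear mRNAs. Many of the subunits have counterparts in bacterial ribosomes, and others occur only in mitochondria. Hydrogen peroxide damages respiratory enzymes and evokes a broad transcriptional stress response in fission yeast, which the study examined in mutants of enzymes that remove ubiquitin.

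PolyA RNA was sequenced from 3 strains: WT, labelled as strain 972, and strains labelled as deleted for ubp8 or ubp16, genes for ubiquitin-specific proteases. Ubp8 belongs to the SAGA coactivator, where it removes ubiquitin from histone H2B. All strains were grown in YE5S medium at 30 °C to an OD600 of 0.5, and were sampled either without treatment or once exposed to hydrogen peroxide at 1 mM for 30 min. Each of the 6 groups had 2 libraries, which the labels do not place in separate cultures, so p-values measure the spread between these libraries and it may be technical.

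Total counts per library ran from 9904056 to 14054746. The ubp8 transcript was at 26.2% of its WT level in untreated ubp8, and the ubp16 transcript was at 46.5% in untreated ubp16, so reads of both genes remained in strains labelled as deletions, and the deleted stretch is not given in the labels. The ubp16 transcript was also at 45.7% of its untreated level in WT after peroxide and at 63.8% of WT in untreated ubp8, so its level is a weak check of the label. Below, ubp8 and ubp16 stand for the libraries so labelled. ctt1, the catalase gene, had log2 changes with peroxide of 4.33 in WT, 4.61 for ubp8 and 3.75 for ubp16. Its level was already higher without treatment in both mutants, at 173% of WT in ubp8 and 652% in ubp16. Whether this bears on the other comparisons with WT was not tested. Summed levels of 2 sets of mating-type genes were also higher in both mutants than in WT. Untreated, the sum of mam2 and map2 was 4.69 to 5.38 CPM in WT, 8.45 to 10.4 CPM in ubp8 and 23.9 to 47.3 CPM in ubp16. This was carried by mam2, with log2 differences from WT of 1.25 in ubp8 and 3.45 in ubp16. Those of map2 were -0.02 and -1.31 and were not called. The sum of map3, mfm1, mfm2, mfm3, mam1 and mat1-Mc was 59.4 to 71.1 CPM, 82.5 to 108 CPM and 160 to 192 CPM. In every group 1 of these 6 genes was at 0. After peroxide the sums of mam2 and map2 were 2.21 to 2.86 CPM in WT, 3.15 to 3.38 CPM in ubp8 and 11.4 to 21.5 CPM in ubp16. Those of the 6 genes were 33.8 to 37.6, 58.2 to 63.1 and 139 to 164 CPM. Their part in the comparisons of the mutants with WT was not tested, and in these bulk samples fewer cells of a type and less RNA per cell cannot be told apart.

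All 58 genes passed the filter on low counts, with mean counts per library from 130.9 to 1734 and no library under 77 counts. Levels between genes were compared as CPM (counts relative to library size, scaled by TMM) per kilobase of annotated exon. In untreated WT the median over the 58 genes was 63.3 CPM per kb, with quartiles of 41.5 and 90.7. The median was 60.9 for the large subunit and 63.6 for the small subunit. The same quantity was 41.2 over all coding genes tested, 255 over nuclear respiratory chain genes and 2760 over the proteins of the cytosolic ribosome.

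The genes of this single complex spanned a 22.9-fold range of level per kb of annotated exon. The highest were mrpl19 at 132 and 169 CPM per kb in the 2 untreated WT libraries, mrpl38 at 130 and 151, rsm18 at 136 and 141, mrpl23 at 117 and 130, and mrps16 at 109 and 123. Among these 5, neighbours in the order overlapped between libraries except rsm18 and mrpl23, which were apart. The next gene down, mrpl8, was at 100 and 131 CPM per kb and overlapped with mrps16 and mrpl23, so the set of 5 is not resolved. The lowest were mrpl20 at 7.06 and 6.10, mrps26 at 7.29 and 6.73, and mrp17 at 7.86 and 8.67 CPM per kb, and those of mrpl20 and mrps26 overlapped. The next gene up, rsm10, was at 11.1 and 8.36 CPM per kb and overlapped with mrp17. The level per kb rests on annotated exon length, which was 3670 bp for mrps26, 2768 bp for mrp17 and 2183 bp for mrpl20. It was 579 bp for mrpl19 and 442 bp for mrpl38. By CPM alone, mrpl27 was at 11.8 and 11.1, below mrps26 at 26.7 and 24.7 and mrp17 at 21.8 and 24.0. Whether the annotated exons match the transcripts was not tested. mrpl19 is the counterpart of a bacterial protein at the base of the factor-binding stalk (uL11m), whereas mrpl20 (mL58) has no bacterial counterpart. The largest ratio between the 2 libraries, 1.93, was in mrpl32, at 52.7 and 27.4 CPM.

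**Figure D1:**
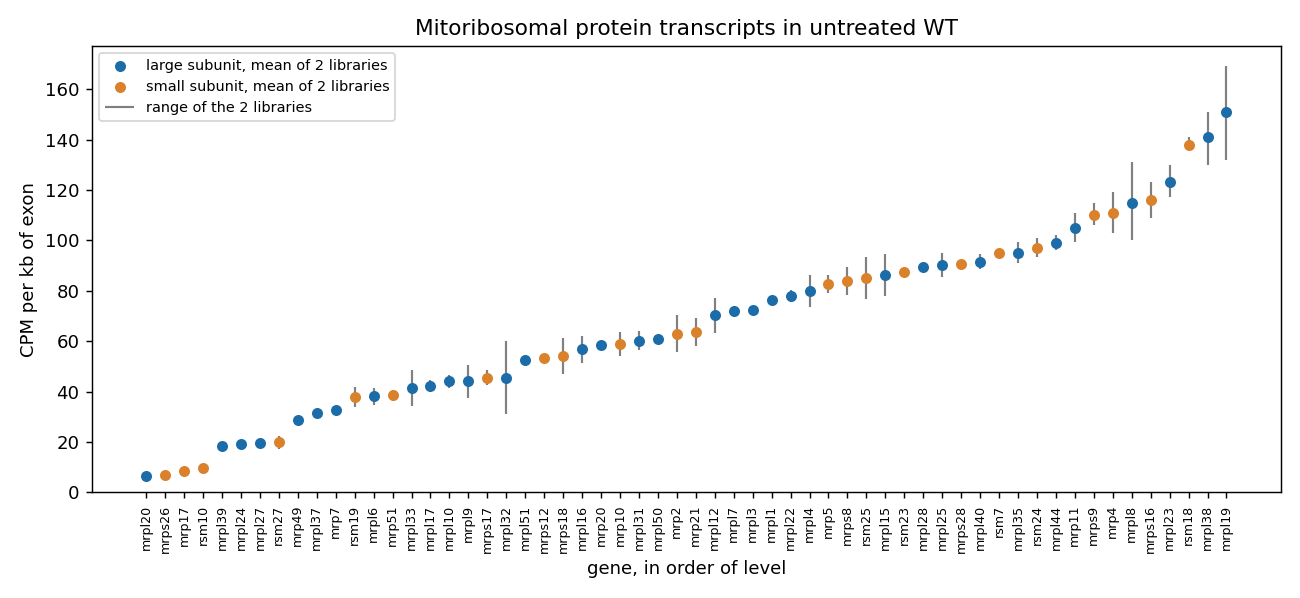
Level of each of the 58 mitoribosomal genes in untreated WT (CPM per kb of exon), in order of level, with points for the mean of 2 libraries and lines for their range. Large-subunit and small-subunit genes were interleaved from 6.58 CPM per kb (mrpl20) to 151 CPM per kb (mrpl19).

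Changes between groups were tested with edgeR's quasi-likelihood test over 8166 genes, with Benjamini-Hochberg adjustment within each comparison, and a gene is called where the adjusted p is under 0.05. After peroxide in WT, 7 of the 58 genes rose, 19 fell and 32 did not pass, while 29.7% of 4954 coding genes were called higher and 36.5% lower. The median log2 fold change was -0.05, against -0.08 over coding genes. Without the first untreated WT library it was -0.13, below the coding median of -0.09, and without the first treated one it was -0.09, below that of -0.05. Without the second untreated library it was 0.00. Only 3 of the 58 changed by 2-fold or more, all downward, where 22.1% of coding genes did so in either direction. With scaling by library totals alone, which moved the median of all genes by -0.19, 5 of the 58 rose and 27 fell.

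The 6 largest falls in WT were all in the large subunit. The proteins of 4 of them are found only in mitochondrial ribosomes: mrpl3 (mL44), mrpl17 (mL46), mrpl37 (mL54) and mrpl20 (mL58). The other two were mrpl7 (uL5m), whose counterparts in all ribosomes sit in the central protuberance at the top of the large subunit, and mrpl50, which RefSeq names only as protein Mrpl50 and whose budding yeast namesake is the counterpart of bacterial protein L9. Each of these calls held under every alternative setting tried and without any single library.

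mrpl50 was at 67.5 and 70.1 CPM in the untreated WT libraries and at 27.0 and 29.4 CPM in the treated ones. It fell by 1.29 ± 0.11 (log2 fold change ± SE, 2 libraries per group, adjusted p = 7.53e-08). mrpl3 was at 78.8 and 77.4 CPM untreated and at 32.6 and 33.4 CPM treated, a fall of 1.24 ± 0.12, which left 42.3% of the untreated level (adjusted p = 1.8e-07). mL44 is built on the fold of RNase III enzymes. mrpl17 was at 57.98 and 51.7 CPM untreated and at 24.3 and 23.6 CPM treated, a change of -1.20 ± 0.13 (adjusted p = 6.53e-07). In all 3 genes the treated libraries lay far below both untreated ones, and the groups did not overlap.

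mrpl37 was at 29.1 and 27.9 CPM untreated and at 13.5 and 16.8 CPM treated (-0.91 ± 0.15, adjusted p = 9.65e-05). mrpl7 was at 102 and 108 CPM untreated and at 57.2 and 57.7 CPM treated (-0.87 ± 0.09, adjusted p = 7.7e-07). mrpl20 was at 15.4 and 13.3 CPM untreated and at 8.10 and 8.68 CPM treated (-0.77 ± 0.18, adjusted p = 0.00163). The untreated and treated libraries were apart in each of the 3. The other 13 genes called lower in WT changed by between -0.67 (mrpl23, uL13m) and -0.25 (mrpl40, uL24m). Of these, 8 belong to the small subunit, the largest change being that of rsm27 (-0.51). The count of 19 was 10 without the second untreated WT library and 11 without the first treated one.

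The 7 genes that rose in WT came from both subunits. mrpl15 (mL57), which in budding yeast forms an RNase III-like pair with mrpl3, was at 86.1 and 70.9 CPM untreated and at 175 and 137 CPM treated, a rise of 0.99 ± 0.16 (adjusted p = 5.89e-05). Its partner in that pair moved in the opposite direction, as given above. mrp51 (bS1m), a small-subunit protein that in budding yeast acts in the translation of mitochondrial mRNAs through their leaders, was at 68.8 and 61.2 CPM untreated and at 109 and 113 CPM treated (0.77 ± 0.10, adjusted p = 3.34e-06). rsm10 (uS10m), in the head of the small subunit, was at 28.8 and 21.6 CPM untreated and at 40.2 and 42.5 CPM treated (0.72 ± 0.14, adjusted p = 0.000295).

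mrpl16 (uL16m) rose by 0.60 ± 0.12, from 82.5 and 100 CPM to 134 and 144 CPM (adjusted p = 0.000396). mrp4 (uS2m) rose by 0.48 ± 0.11, from 96.6 and 112 CPM to 143 and 149 CPM (adjusted p = 0.00123). mrpl6 (uL6m) rose by 0.35 ± 0.11, and mrpl28 (mL40), a component of the central protuberance, by 0.30. The groups were apart for each, but mrpl6 was not called with library totals, nor without the first untreated or the second treated WT library, and mrpl28 was not called with library totals.

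**Figure D2:**
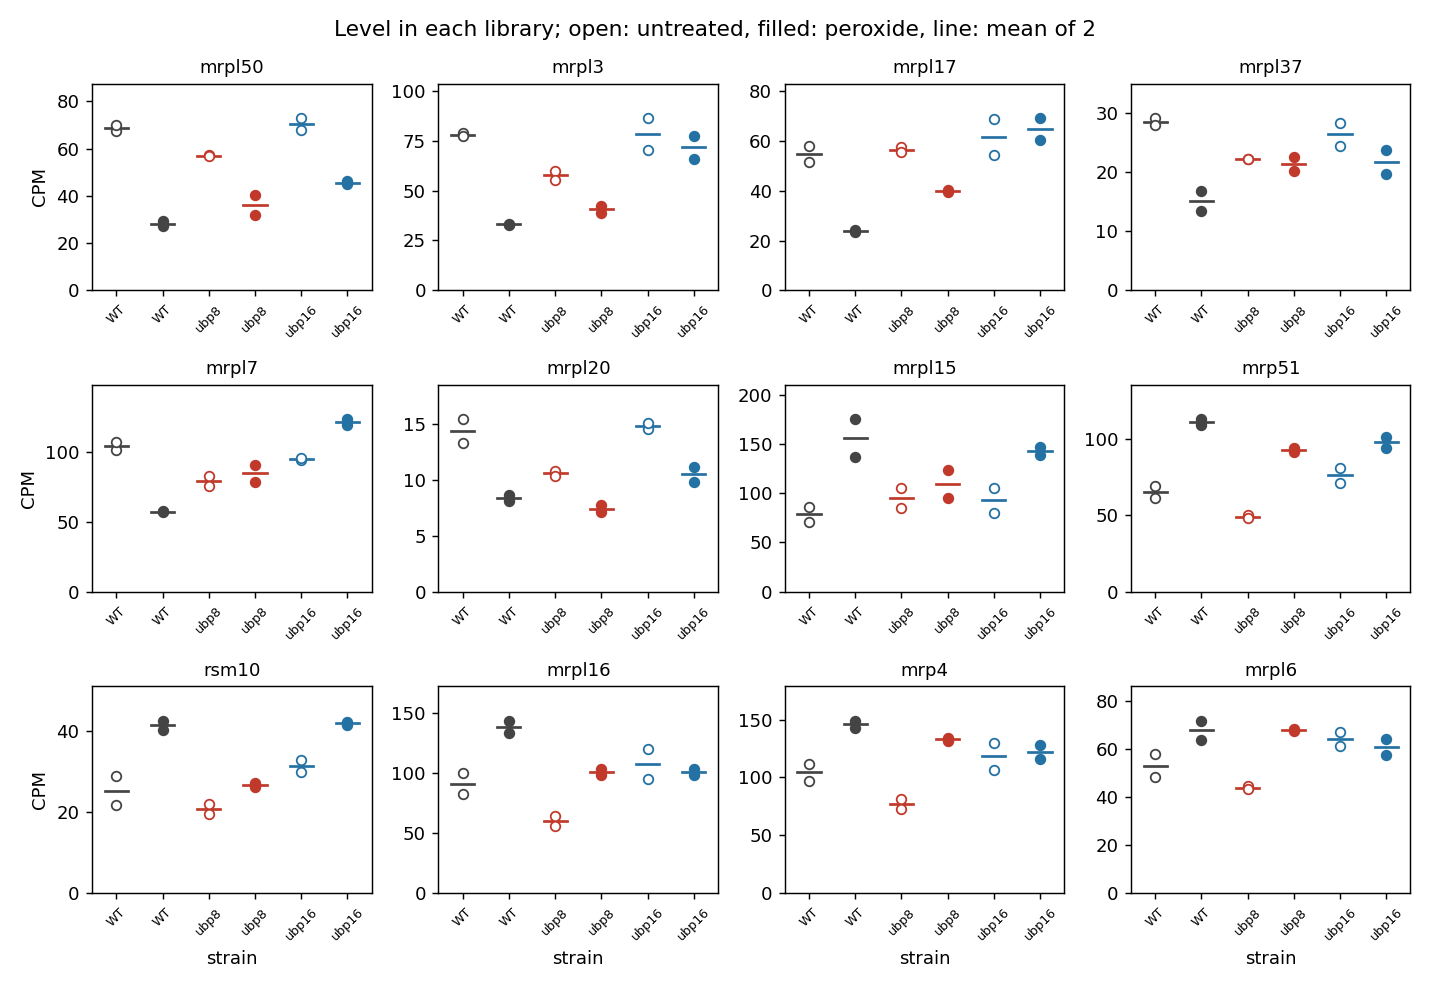
Level (CPM) of the 6 genes called lower and the 6 called higher with the largest changes in WT, in each of 12 libraries (open, untreated; filled, peroxide; line, mean of 2). The treated WT points of mrpl17 lie at 23.6 to 24.3 CPM, and those of ubp16 at 60.4 to 69.3 CPM.

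In ubp8, 23 of the 58 genes rose with peroxide, 5 fell and 30 did not pass, while 38.5% of coding genes rose and 26.8% fell. The median change was 0.17, against 0.08 over coding genes, and it was 0.06, against -0.03, without the first treated ubp8 library. None changed by 2-fold or more, where 19.5% of coding genes did. With library totals 7 rose, 23 fell and the median was -0.15, while the distance from the coding median stayed at 0.09, so the direction of the group as a whole depends on the scaling. The count of 23 was 8 without the first treated ubp8 library, 15 without the second and 13 without the second untreated ubp8 library.

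The largest rises in ubp8 were in mrp51 (0.92 ± 0.09), mrpl27 (0.85 ± 0.22), mrp4 (0.79 ± 0.11), mrpl16 (0.75 ± 0.12), mrpl6 (0.63 ± 0.11) and mrpl10 (uL15m, 0.60 ± 0.11). mrp51 went from 50.3 and 47.9 CPM to 94.0 and 91.5 CPM (adjusted p = 4.86e-07). mrp4 went from 81.0 and 72.7 CPM to 135 and 132 CPM (adjusted p = 1.12e-05). With TMM scaling, both genes started below their untreated WT level and did not reach their treated WT level. This order rests on the scaling: library totals moved the median of all genes by 0.29 for untreated and 0.16 for treated ubp8 against WT. mrpl27, with 5.16% of its exon length shared with other genes on its strand, went from 7.80 and 7.72 CPM to 15.5 and 12.3 CPM (adjusted p = 0.00427), and its call was lost without the first treated library and with library totals.

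All 3 proteins of the factor-binding stalk and its base, mrp11 (uL10m), mrpl12 (bL12m) and mrpl19, were among the 23, with changes of 0.24 to 0.39, and none of the 3 was called in WT. The difference between these responses was called in none of the 3 (0.21 for mrp11, 0.40 for mrpl12 and 0.35 for mrpl19). All 3 calls were lost with library totals and without single ubp8 libraries. The 5 genes that fell in ubp8 were also called lower in WT. mrpl50 went from 57.2 and 56.8 CPM to 40.3 and 32.0 CPM (-0.65 ± 0.11, adjusted p = 9.39e-05). mrpl3 went from 59.8 and 55.5 CPM to 42.4 and 38.8 CPM (-0.51 ± 0.11, adjusted p = 0.00143). mrpl17 went from 57.7 and 55.5 CPM to 40.3 and 39.7 CPM (-0.50 ± 0.12, adjusted p = 0.00194). The groups did not overlap, and these 3 calls held under every alternative. mrpl20 (-0.51) and mrp49 (mL61, -0.37) lost their calls without single libraries.

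In ubp16, 7 of the 58 genes rose with peroxide, 16 fell and 35 did not pass, while 31.1% of coding genes rose and 32.7% fell. The median change was -0.10, against -0.02 over coding genes. It was -0.02 without the first treated ubp16 library, and -0.17 without the first untreated one. None changed by 2-fold or more, where 19.2% of coding genes did. With library totals none rose and 35 fell. The 16 falls became 5 without the first treated ubp16 library and 6 without the second untreated one, and DESeq2 called 6 lower. The 7 rises became 4 without the second treated ubp16 library.

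mrps17 (uS17m), a small-subunit protein that binds the ribosomal RNA, had the largest fall in ubp16. It was at 40.1 and 53.4 CPM untreated and at 25 and 27.3 CPM treated, a change of -0.83 ± 0.14 (adjusted p = 9.35e-05). In WT it changed by -0.23 and in ubp8 by -0.09, and neither passed the test. mrpl50 went from 67.8 and 72.9 CPM to 46.1 and 45.2 CPM (-0.62 ± 0.11, adjusted p = 0.00015). mrpl8 (bL17m) went from 118 and 136 CPM to 85.0 and 93.7 CPM (-0.51 ± 0.12, adjusted p = 0.00199). The untreated and treated libraries of all 3 genes were apart. For mrpl8, 21.9% of the exon length is shared with other genes on the same strand in the reference, so part of its count is uncertain. mrpl4 (uL29m), at the exit of the polypeptide tunnel, changed by -0.50 ± 0.13, a call lost without the second untreated or the first treated ubp16 library, and mrp5 (uS5m) by -0.42 ± 0.09, a call that held throughout.

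The largest rises that passed in ubp16 were in mrpl44 (mL53) and mrpl15. mrpl44 was at 25.7 and 24.1 CPM untreated and at 39.7 and 37.8 CPM treated, a change of 0.64 ± 0.14 (adjusted p = 0.00139), whereas it changed by -0.24 in both WT and ubp8 without passing the test. mrpl15 was at 105 and 80.4 CPM untreated and at 139 and 147 CPM treated (0.62 ± 0.16, adjusted p = 0.0035). mrpl7 was at 94.1 and 95.5 CPM untreated and at 119 and 124 CPM treated (0.36 ± 0.09, adjusted p = 0.00343). The groups did not overlap in any of the 3, but none of the 3 was called with library totals (0.38, 0.36 and 0.10). mrp51, rsm10 and mrpl39 (bL33m) were also called higher, mrpl39 at 18.5 and 16.4 CPM untreated and at 20.7 and 25.5 CPM treated.

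**Figure D3:**
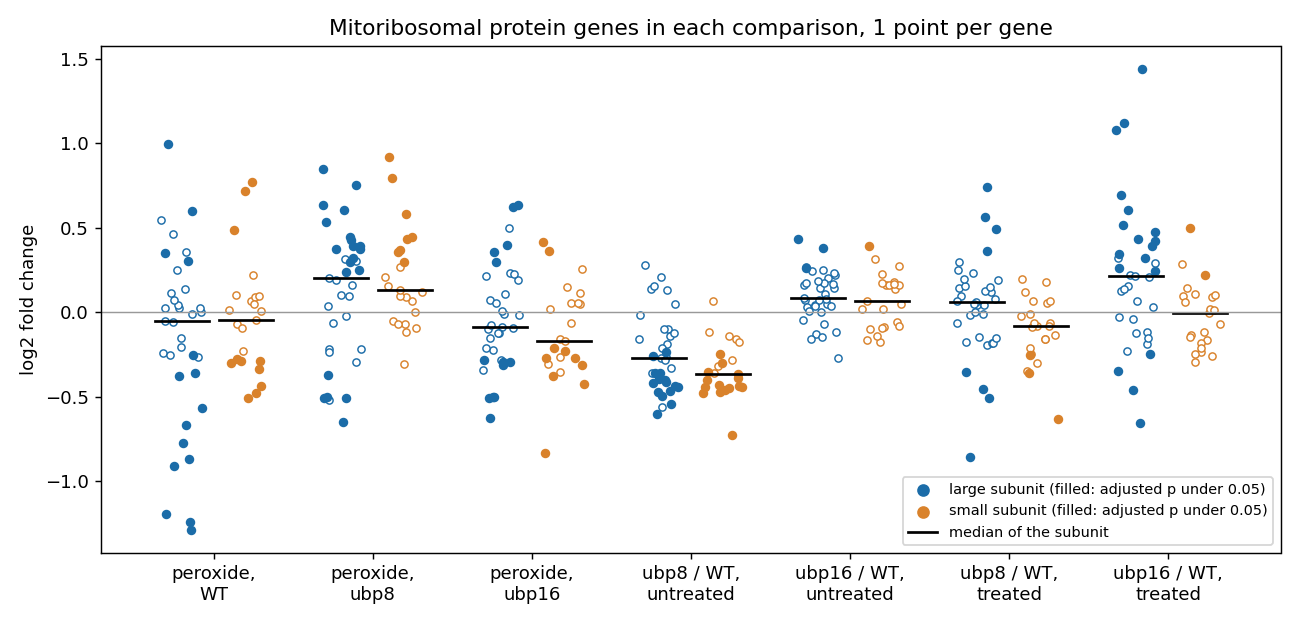
Log2 fold change of each mitoribosomal gene in 7 comparisons (large and small subunit side by side, filled points called at an adjusted p under 0.05, black lines the subunit medians). In the WT response 3 large-subunit genes lie below -1, and in treated ubp16 against WT 3 lie above 1.

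Across the 3 responses, mrp51 and rsm10 were called higher in each strain, and mrp49, mrpl20 and mrpl50 lower in each. The smallest of the rsm10 rises was 0.37 in ubp8, and the smallest of the mrp49 falls was -0.31 in ubp16. mrp51, mrpl20, mrp49 and rsm10 each lost a call in at least 1 mutant without single libraries, mrp51 only in ubp16, without its first untreated library, where library totals also ended the call. The WT call of mrp49 was lost with DESeq2 and without the first untreated or either treated WT library. In 6 genes, mrpl4, mrpl7, mrpl8, mrpl12, mrpl28 and mrpl40, 2 of the responses were called in opposite directions. Over the 58 genes, Pearson's r between the log2 changes was 0.70 for WT with ubp8, 0.47 for WT with ubp16 and 0.28 for ubp8 with ubp16. The 3 responses share no library. Over coding genes the same values were 0.90, 0.68 and 0.80. These are descriptions across genes, which are not independent replicates, and the range of changes was narrower in the 58.

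The difference between the responses was tested as an interaction. For ubp8 against WT, 14 of the 58 genes had a higher response in ubp8 and 1 a lower one, while 16.8% of coding genes had a higher and 3.75% a lower response. The median difference was 0.29, against 0.17 over coding genes. It was 0.14 without the second untreated WT library or without the first treated ubp8 library, and 0.17 without the first treated WT library. The 14 became 1 without the first treated WT library or without the first treated ubp8 library, 2 without the second untreated ubp8 library, 3 without the second untreated WT library, 4 without the second treated WT library and 5 without the second treated ubp8 library. With library totals 4 were higher and 1 lower.

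mrpl7 carried the firmest of these differences. It was at 82.7 and 76.1 CPM in untreated ubp8 and at 91.0 and 78.5 CPM after peroxide, so that the fall seen in WT was replaced by a change of 0.10 ± 0.09. The interaction was 0.96 ± 0.13 (adjusted p = 0.000368) and held under every alternative and without any library. mrpl37 was at 22.2 CPM in both untreated ubp8 libraries and at 20.1 and 22.6 CPM after peroxide, which overlap (interaction 0.85 ± 0.21, adjusted p = 0.0146). The interactions of mrpl3 (0.74), mrpl17 (0.69), mrpl50 (0.63) and mrpl10 (0.58) were also called. All of these except that of mrpl7 lost the call without at least 1 library. mrpl15 went the other way: at 85.0 and 105 CPM in untreated ubp8 and 95.6 and 124 CPM after peroxide, its libraries overlapped, and its interaction of -0.79 ± 0.22 (adjusted p = 0.0251) was lost without each of 4 libraries.

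For ubp16 against WT, 8 of the 58 genes had a higher response in ubp16 and 8 a lower one, while 18% of coding genes had a higher and 17.3% a lower response. The median difference was 0.02 over both the 58 genes and coding genes, and leaving out single libraries moved it for the 58 from -0.02 (without the second treated WT library) to 0.08 (without the first treated ubp16 library). With library totals 5 were higher and 9 lower. The lower calls became 2 without the second treated WT library or the second untreated ubp16 library, 3 without the first untreated WT library or the first treated ubp16 library, and 5 without the first treated WT library. The higher calls became 5 without the second untreated or first treated WT library, or without the first untreated or second treated ubp16 library.

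Both interactions and the WT response share the WT libraries. mrpl17 had the largest difference: it was at 69.0 and 54.3 CPM in untreated ubp16 and at 69.3 and 60.4 CPM after peroxide, which overlap, and its interaction was 1.27 ± 0.17 (adjusted p = 5.17e-05). mrpl3 was at 70.1 and 86.4 CPM untreated and at 65.7 and 77.6 CPM treated, which also overlap (interaction 1.12 ± 0.16, adjusted p = 9.6e-05). For mrpl7, which rose in ubp16, the interaction was 1.22 ± 0.13 (adjusted p = 4.76e-06). In treated ubp16 all 3 were well above their levels in treated WT. The interactions of mrpl44 (0.88 ± 0.21) and mrpl50 (0.66 ± 0.16) held under every alternative as well, and that of mrpl37 (0.63) did not.

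Of the lower responses in ubp16, those of mrpl16 (-0.69 ± 0.17, adjusted p = 0.00535) and mrpl28 (-0.58 ± 0.12, adjusted p = 0.00205) held under every alternative. mrpl16 was at 95.3 and 120 CPM in untreated ubp16 and at 98.2 and 104 CPM after peroxide, without the rise of WT. mrpl28 went from 60.02 and 62.2 CPM down to 49.5 and 50.9 CPM in ubp16, and from 63.2 and 65.1 CPM up to 78.6 and 79.5 CPM in WT. Those of mrps17 (-0.61), mrpl8 (-0.53), mrp4 (-0.44) and mrpl6 (-0.42) each lost the call without at least 4 single libraries.

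**Figure D4:**
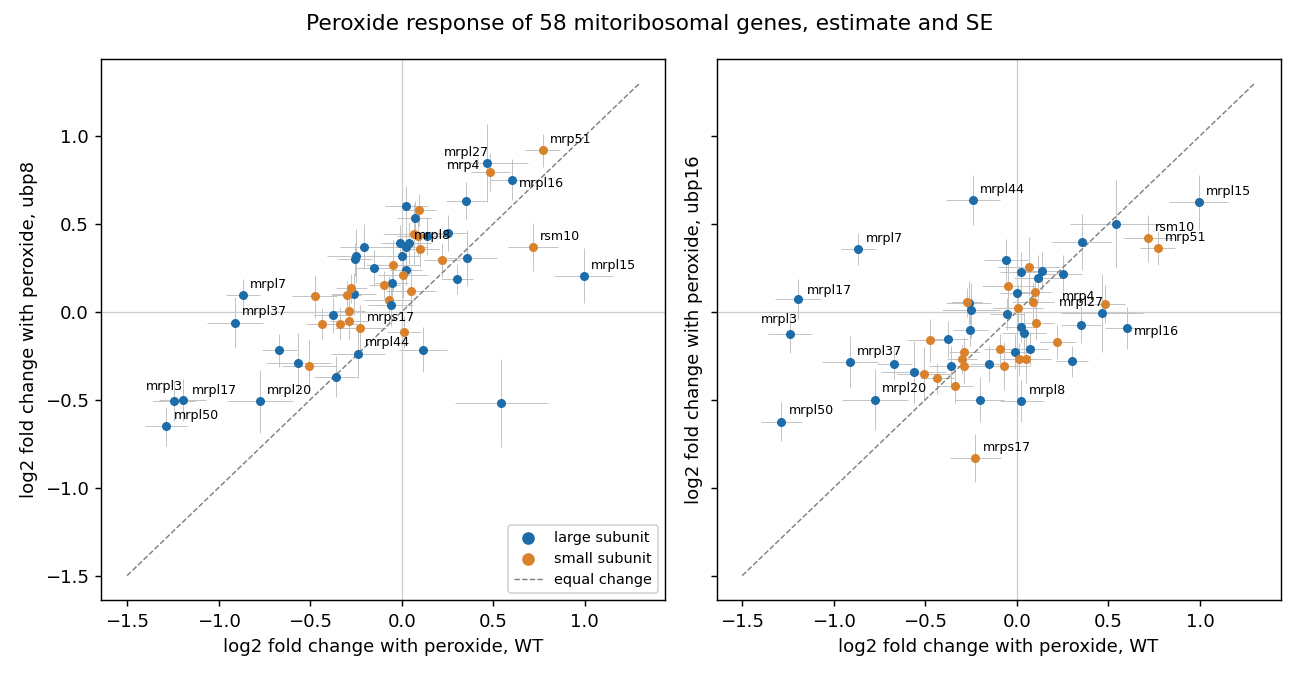
Log2 fold change with peroxide in ubp8 (left) and ubp16 (right) against that in WT for the 58 genes, with SE bars and a dashed line of equal change. mrpl3, mrpl7, mrpl17, mrpl37 and mrpl50 lie far to the left, above the dashed line in both panels, and in ubp16 mrpl7 and mrpl17 lie above 0.

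Between the mutants, 2 of the 58 genes had a higher response in ubp16 than in ubp8 and 18 a lower one, while 7.02% of coding genes had a higher and 20.8% a lower response. The median difference was -0.24, against -0.16 over coding genes, and it was -0.07 without the first treated ubp16 library and -0.14 without the first treated ubp8 library. The lower ones were led by mrpl8 (-0.88 ± 0.17, adjusted p = 0.0018), mrpl4 (-0.87 ± 0.18, adjusted p = 0.00365), mrpl16 (-0.84 ± 0.17), mrp4 (-0.75 ± 0.15), mrpl35 (-0.75 ± 0.14) and mrps17 (-0.74 ± 0.19). mrpl44 was higher in ubp16 by 0.87 ± 0.20 (adjusted p = 0.00614) and mrpl17 by 0.57. The calls of mrpl4, mrps17 and mrpl17 were lost without single libraries, those of the other five were not. The 18 became 5 without the first treated library of either mutant, 8 without the second treated ubp8 library, 9 without the second treated ubp16 library and 11 without the second untreated library of either. The 2 higher ones became 1 without the second untreated ubp8 library, and 4 without the second treated ubp8 library or the first untreated ubp16 library.

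Before peroxide, 30 of the 58 genes were lower in ubp8 than in WT, 15 in each subunit, and none was higher, while 38.4% of coding genes were lower and 6.46% higher. At an unadjusted p under 0.05, 39 of the 58 differed, and DESeq2 called none higher. The median was -0.34, against -0.21 over coding genes, and 40 of the 58 lay below the coding median. With library totals, which moved the median of all genes by 0.29, 1 gene was lower, 5 were higher and the median was -0.05, so that the count of lower genes rests on the scaling. The distance between the medians of the 58 and of coding genes was -0.14 and, with library totals, -0.13, but it was -0.03 without the second untreated WT library (members' median -0.14) and -0.18 without the first. The 30 became 6 without the second untreated WT library and 14 without the second untreated ubp8 library, and 1 gene was higher without the first untreated WT library.

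mrp10 (mS37), a small protein of the small subunit, was at 29.7 and 34.8 CPM in untreated WT and at 18.3 and 20.7 CPM in untreated ubp8 (-0.72 ± 0.17, adjusted p = 0.00452). mrpl16 was at 82.5 and 100 CPM in WT and at 64.0 and 56.2 CPM in ubp8 (-0.60 ± 0.12, adjusted p = 0.00175). rsm18 (bS18m) was at 109 and 113 CPM in WT and at 79.6 and 79.8 CPM in ubp8 (-0.48 ± 0.08, adjusted p = 0.000669). The strains did not overlap in these 3 genes. mrpl10 (-0.54), mrpl19 (-0.50) and mrpl40 (-0.47) completed the 6 largest differences among called genes, and mrpl27 (-0.56, adjusted p = 0.0607) did not pass. Of the 6 genes, mrpl16 alone was still called with library totals, rsm18 and mrpl40 alone held without any single library.

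Before peroxide, 4 of the 58 genes were higher in ubp16 than in WT and none was lower, while 19.1% of coding genes were higher and 13.3% lower. At an unadjusted p under 0.05, 8 of the 58 differed, and DESeq2 called 2 higher and none lower. The 4 were mrpl4 (0.43 ± 0.13), mrps17 (0.39 ± 0.14), mrp7 (bL27m, 0.38 ± 0.11) and mrp11 (0.26 ± 0.09). mrpl4 was at 40.0 and 46.9 CPM in WT and at 52.1 and 65.6 CPM in ubp16 (adjusted p = 0.0216). The 4 became 2 without the first untreated WT library and 1 without the second untreated ubp16 library. Each of the 4 lost its call without some single library and with a fit to the 4 libraries of the comparison alone. With library totals 16 were higher.

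After peroxide, 4 of the 58 genes were higher in ubp8 than in WT and 7 were lower, while 18.6% of coding genes were higher and 20.4% lower. The higher ones were mrpl17 (0.74 ± 0.13, adjusted p = 0.000489), mrpl7 (0.56 ± 0.09, adjusted p = 0.000361), mrpl37 (0.49 ± 0.16) and mrpl50 (0.36 ± 0.12). This comparison shares the treated WT libraries with the WT response. The lower ones included rsm10 (-0.63 ± 0.13, adjusted p = 0.00214), mrpl15 (-0.51 ± 0.16), mrpl16 (-0.45 ± 0.12), mrps12 (uS12m, in the decoding centre, -0.36 ± 0.10) and mrpl28 (-0.35 ± 0.09). mrpl32 (bL32m), whose maturation by a protease precedes ribosome assembly in budding yeast, was at 60.7 and 55.6 CPM in WT and 27.8 and 36.8 CPM in ubp8 (-0.85 ± 0.26, adjusted p = 0.0177). mrpl37, mrpl50, mrpl15, mrps12 and mrpl32 lost their calls without single libraries, and mrpl28, mrpl15, mrps12 and mrpl32 lost theirs with library totals. The 4 higher became 2 and the 7 lower became 4 without the first treated library of either strain, and with library totals 16 were higher and 2 lower.

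After peroxide, 16 of the 58 genes were higher in ubp16 than in WT, 14 of them in the large subunit, and 4 were lower, all in the large subunit, while 37.7% of coding genes were higher and 27.6% lower. The median was 0.09 over both the 58 genes and coding genes, and for the 58 it was 0.14 without the first treated ubp16 library and 0.02 without the second. mrpl17 was at 24.3 and 23.6 CPM in treated WT and at 69.3 and 60.4 CPM in treated ubp16, a difference of 1.44 ± 0.13, or 2.71-fold (adjusted p = 1.05e-07). mrpl3 was higher by 1.12 ± 0.12, or 2.17-fold (adjusted p = 8.55e-07), and mrpl7 by 1.08 ± 0.09, or 2.11-fold (adjusted p = 8.78e-08). The strains did not overlap in the 3 genes. They were followed by mrpl50 (0.69 ± 0.12), mrpl44 (0.61 ± 0.15) and mrpl37 (0.51 ± 0.16).

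The 4 lower genes were mrpl28 (-0.65 ± 0.09, adjusted p = 9.58e-06), mrpl16 (-0.46 ± 0.12, adjusted p = 0.00352), mrpl8 (-0.35) and mrpl35 (-0.25). Calls of mrpl37, mrpl8 and mrpl35 were lost without single libraries. The 16 became 10 without the second treated ubp16 library, and the 4 lower became 2 without the first treated ubp16 library or the second treated WT library and 7 without the second treated ubp16 library.

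The 58 genes were also sorted by the class given in their product names. There were 34 named as having counterparts in bacterial ribosomes (names in u or b) and 16 named as found only in mitochondrial ribosomes (names in m). The other 8 had no such name, so genes with bacterial counterparts can be among them. In WT, 5 of the 34 rose and 9 fell with peroxide (median -0.00), while 2 of the 16 rose and 8 fell (median -0.26). In ubp8, 16 of the 34 rose and none fell (median 0.24), while 4 of the 16 rose and 4 fell (median -0.01). Of the 8 without a class name, 3 rose and 1 fell in ubp8. The 1 that fell was mrpl50, whose budding yeast namesake has a bacterial counterpart and which was called lower in all 3 strains. In ubp16, 4 of the 34 rose and 10 fell (median -0.14), and 3 of the 16 rose and 4 fell (median -0.00). The share of coding genes called higher and lower was 29.7% and 36.5% in WT, 38.5% and 26.8% in ubp8, and 31.1% and 32.7% in ubp16. With library totals 5 of the 34 rose and 11 fell in ubp8. The difference between the classes was not tested.

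By position in the ribosome, the central protuberance was represented by mrpl7, mrpl17, mrpl28, mrpl31 and mrp7. With peroxide 1 of the 5 rose and 2 fell in WT, 1 rose and 1 fell in ubp8, and 2 rose and 1 fell in ubp16. In treated ubp16 against WT, which shares the treated WT libraries with the WT response, 4 were higher and 1 was lower, where 37.7% of coding genes were higher and 27.6% lower. The 4 proteins at the tunnel exit, mrp20 (uL23m), mrpl4, mrpl22 and mrpl40, had 2 falls in WT, 2 rises in ubp8 and 1 fall in ubp16. For both regions the shares of coding genes higher and lower were 29.7% and 36.5% in WT, 38.5% and 26.8% in ubp8, and 31.1% and 32.7% in ubp16, and nothing is read from counts out of 4 or 5 genes. The classes and regions were assigned with the values known and are descriptions.

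At the other end, mrp20, mrps18, mrps26 and rsm19 were called in none of the 10 comparisons. Their fitted differences lay between -0.39 and 0.41 in all of them. A further 5, mrp17, mrpl1, mrpl9, mrpl32 and mrpl38, were called in none of the 3 responses. mrpl32 is the most variable of these: its changes with peroxide of 0.54 ± 0.25 in WT, -0.52 ± 0.25 in ubp8 and 0.50 ± 0.25 in ubp16 did not pass, with adjusted p from 0.0819 to 0.108.

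Fission yeast genes are closely packed, and the genes annotated opposite the 12 members named in the WT response were read from the table as well. The labels name a stranded kit, but the labels and notes used here do not state how strand entered the counting. Opposite mrpl17 lies the long non-coding RNA SPNCRNA.1265, with a mean of 101 counts per library, which rose by 2.20 ± 0.26 in WT (adjusted p = 2.14e-06), 0.66 ± 0.24 in ubp8 and 0.93 ± 0.28 in ubp16. It rose in WT where mrpl17 fell. Opposite mrpl15 lies sid4, which fell by 0.78 ± 0.13 in WT (adjusted p = 6.9e-05), where mrpl15 rose, and changed by -0.05 in ubp8 and -0.21 in ubp16 without passing.

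Opposite mrpl7 lies byr2, a kinase of the mating pathway, which changed by 0.25 ± 0.14 in WT without passing and rose by 0.92 ± 0.13 in ubp8 and 0.69 ± 0.13 in ubp16. Opposite mrp51 lies bbc1, at 0.22 in WT without passing, 0.86 in ubp8 and 0.77 in ubp16, and opposite mrp4 lies SPAC24C9.09, which rose in all 3 strains by 0.34 to 0.82. Transcripts opposite mrpl3, mrpl37 and mrpl50 had means of at most 27.1 counts. Whether any of these moved the counts of the members was not tested.

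The rest of the mitochondrial translation apparatus included genes with changes larger than any among the 58. In WT 29.7% of coding genes rose and 36.5% fell, in ubp8 38.5% and 26.8%, and in ubp16 31.1% and 32.7%, and the counts below are read against these shares. Among the 20 mitoribosomal genes of other names, 3 rose and 6 fell in WT, led by rtc6 (0.60 ± 0.15) and img2 (-0.55 ± 0.11). In these 20 genes, 8 rose and 3 fell in ubp8, and 5 rose and 4 fell in ubp16. Scaling by library totals gave 2 and 9 in WT, 2 and 6 in ubp8, and 2 and 11 in ubp16, so their direction in the mutants depends on the scaling. Of 13 mitochondrial translation factors, 2 rose and 6 fell in WT (median -0.28), or 1 and 9 with library totals. guf1, a translational GTPase related to bacterial LepA, changed by -1.49 ± 0.14 and mrf1, the release factor, by -1.002 ± 0.11, while tsf1, an elongation factor, rose by 0.60 ± 0.10.

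Of 9 genes for mitoribosome assembly and membrane insertion, 2 rose and 4 fell in WT (median -0.62), or 2 and 5 with library totals. The assembly GTPase mtg2 changed by -1.71 ± 0.17, the helicase mss116 by -1.30 ± 0.11 and the insertase oxa102 by -1.27 ± 0.14, whereas mam33 rose by 0.77 ± 0.11. These 4 genes moved in the same direction in both mutants, with mtg2 at -0.88 in ubp8 and -1.40 in ubp16. A list of 15 genes joined mitochondrial RNA synthesis and decay with pentatricopeptide proteins. Of these, 2 rose and 6 fell in WT, or 13.3% and 40.0%, led by ppr8 (2.11 ± 0.10) and trz2 (-2.10 ± 0.13). Scaling by library totals gave 1 and 7. Of 11 mitochondrial aminoacyl-tRNA synthetases, 2 rose and 7 fell in WT, or 18.2% and 63.6%, led by msy1 (2.76 ± 0.14) and msk1 (-1.13 ± 0.09). The count was 3 and 7 in ubp8 and 2 and 7 in ubp16. Scaling by library totals gave 2 and 8 in both WT and ubp8, and 2 and 7 in ubp16.

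The products of mitochondrial translation assemble with nuclear-encoded respiratory subunits, which were counted in the same way. Of 33 nuclear respiratory chain genes, 20 rose and 3 fell in WT (median 0.28), 22 rose and 2 fell in ubp8 (median 0.37), and 12 rose and 8 fell in ubp16 (median 0.10). As shares, 60.6% rose in WT and 66.7% in ubp8, where 29.7% and 38.5% of coding genes did. With library totals 8 rose and 6 fell in WT, 9 and 7 in ubp8, and 2 and 12 in ubp16. atp5, of the ATP synthase, rose by 0.79 ± 0.09 in WT, and sdh2, of succinate dehydrogenase, changed by -0.40 in WT and -1.51 in ubp16. In untreated ubp8 against WT 29 of the 33 were lower (median -0.46), or 87.9% where 38.4% of coding genes were, and with library totals 15 were. The 129 genes of the cytosolic ribosome, many with near-identical copies, had 23 falls in WT, 33 in ubp8 and 94 in ubp16, with no rise in any strain. As shares, 17.8%, 25.6% and 72.9% fell, where 36.5%, 26.8% and 32.7% of coding genes did. With library totals the falls were 105, 122 and 123.

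Per library, the median log2 level of the 58 genes relative to the mean of untreated WT was -0.06 and 0.06 in untreated WT, -0.05 and -0.10 in treated WT, -0.32 and -0.35 in untreated ubp8, -0.06 and -0.13 in treated ubp8, 0.05 and 0.14 in untreated ubp16, and -0.06 and 0.05 in treated ubp16. The untreated ubp8 libraries were the lowest of the 12. Their TMM factors were also the highest, 1.19 and 1.25. The share of all reads in genes divides by the library total, so it is not a check separate from scaling by library totals. By this share the 58 genes held 0.400% and 0.401% in untreated WT, and 0.342% and 0.330% in treated WT. They held 0.392% and 0.406% in untreated ubp8, and 0.366% and 0.359% in treated ubp8. In ubp16 the shares were 0.467% and 0.449% untreated, and 0.361% and 0.372% treated. By this measure untreated ubp8 overlapped with untreated WT, and the treated libraries of each strain lay below its untreated ones.

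**Figure D5:**
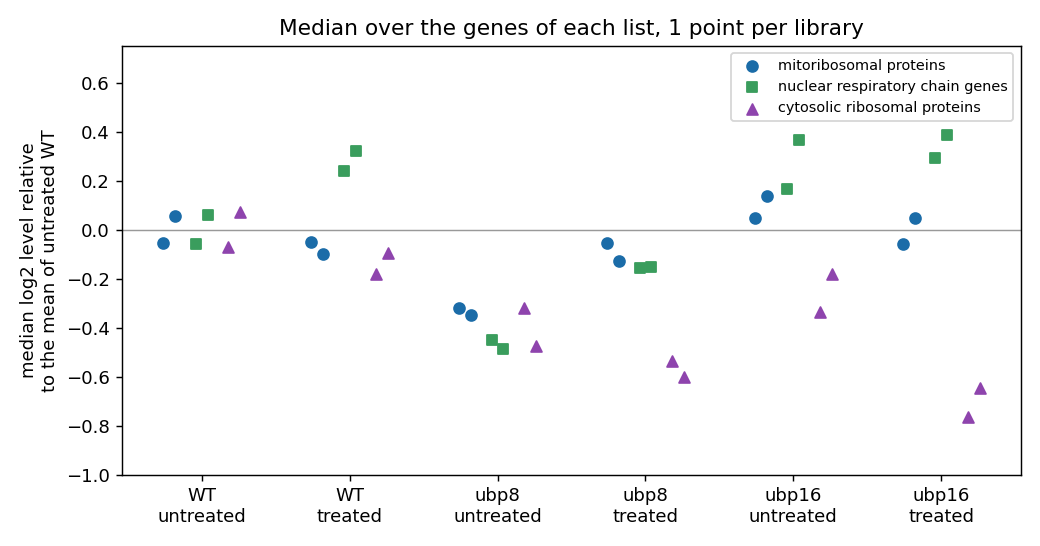
Median log2 level of each gene list relative to the mean of the untreated WT libraries, with 1 point per library in 6 groups. The mitoribosomal genes lie between -0.35 and 0.14 in all libraries, while cytosolic ribosomal proteins reach -0.76 in treated ubp16.

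Of the matches to the name rule that are not mitoribosomal, mrp1 was higher in ubp16 than in WT before peroxide, at 39.4 and 39.9 CPM against 24.3 and 28.8 CPM (0.58 ± 0.16, adjusted p = 0.0161), and it was called in none of the 3 responses. It is a non-coding RNA measured here in a polyA library. rsm1 fell in WT by 0.77 ± 0.15 (adjusted p = 0.000375) and in ubp8 by 0.42 ± 0.14 (adjusted p = 0.0208), and changed by -0.23 in ubp16 without passing the test.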

How the data were processed

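Per the labels' protocols, RNA was extracted with hot phenol and polyA RNA was made into stranded libraries. The authors deposited raw counts of reads per gene, and STAR, HTSeq, Trimmomatic, FastQC and DESeq2 are listed, without versions, in the submitters' processing notes. The genome build and the counting strand are not given in the sources used here, so no coordinates or sequences are printed.

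The members and lists were chosen with earlier results of these data known. Gene products and exon lengths came from RefSeq ASM294v3, which matched 12602 of 12683 genes. The 81 others held 0.0642% of counts. Counts were scaled by TMM and fitted in edgeR 4.0.16 (R 4.3.3, limma 3.58.1), with 1 mean per group over 12 libraries, the quasi-likelihood test and Benjamini-Hochberg adjustment over 8166 genes that passed filterByExpr. The SE of a log2 fold change is its size over sqrt(F). A count of 3, the limit that a count of 0 allows, was at most 0.316 CPM, and covers counting error only. On simulated counts for the WT response over 8166 genes, 70 of 100 genes changed by 1 on the log2 scale were recovered, 33 of 100 changed by 0.5, and 3 of 7966 unchanged genes were called. The simulation took each gene's spread from the trend over expression level, and all groups shared 1 mean apart from the changed genes. Far fewer genes changed in it than the 2139 higher and 2207 lower called in WT, so its rates need not hold for the real calls.

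Named genes were up to 6 called members per direction and comparison by size of change (mean of at least 50 counts), the 5 highest and 3 lowest per kb in untreated WT, those called alike in all 3 responses, and ubp8, ubp16 and ctt1 as label checks. Other lists were named by up to 3 called genes per direction. The remaining members named in the text, and the genes opposite members, were chosen after their values were seen. Alternatives were median-of-ratios scaling, library totals, DESeq2 1.42.0, other count filters, a replicate block, only the compared libraries, and leaving out each library.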

Additional observations from a re-analysis of the deposited data

Results flagged for a closer look

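The results here are those in which the peroxide responses of 2 strains differed, tested as an interaction in edgeR over all genes at an adjusted p under 0.05. Values are differences of log2 fold changes. Both comparisons with WT use the same WT libraries.

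Between ubp8 and WT, the response was higher in ubp8 for mrpl7 (0.96), mrpl37 (0.85), mrpl3 (0.74), mrpl17 (0.69), mrpl50 (0.63) and mrpl10 (0.58), and lower for mrpl15 (-0.79). Of these 7, mrpl7 alone kept its call without each library in turn.

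Between ubp16 and WT, the response was higher in ubp16 for mrpl17 (1.27), mrpl7 (1.22), mrpl3 (1.12), mrpl44 (0.88), mrpl50 (0.66) and mrpl37 (0.63). It was lower for mrpl16 (-0.69), mrps17 (-0.61), mrpl28 (-0.58), mrpl8 (-0.53), mrp4 (-0.44) and mrpl6 (-0.42). Calls of mrpl37, mrps17, mrpl8, mrp4 and mrpl6 were lost without single libraries.

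Between the mutants, the response was higher in ubp16 for mrpl44 (0.87) and mrpl17 (0.57), and lower for mrpl8 (-0.88), mrpl4 (-0.87), mrpl16 (-0.84), mrp4 (-0.75), mrpl35 (-0.75) and mrps17 (-0.74). Calls of mrpl17, mrpl4 and mrps17 were lost without single libraries.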

How the results depend on the processing

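Values are counts of the 58 genes, as higher and lower, and the cause of each move was not tested. With library totals the counts were 7 and 23 for the response in ubp8, 0 and 35 for that in ubp16, 5 and 1 for untreated ubp8, 16 higher for untreated ubp16, 16 and 2 for treated ubp8, and 4 and 5 higher for the interactions of ubp8 and ubp16 with WT, respectively. With median-of-ratios scaling they were 2 higher for untreated ubp16, and 2 and 5 lower for the same interactions. With DESeq2 they were 6 lower for the response in ubp16, 2 higher for untreated ubp16, 2 higher for treated ubp8, 4 lower for the interaction of ubp16 with WT and 11 lower between the mutants. With no count filter they were 9 lower for the response in ubp8, 1 higher for untreated ubp8, 9 and 2 for the interaction of ubp8 with WT, and 6 and 11 between the mutants. With a mean of at least 50 counts they were 8 lower for the response in ubp8, 1 and 14 for untreated ubp8, 6 higher for the interaction of ubp8 with WT and 4 higher between the mutants. With only the compared libraries they were 1 higher for untreated ubp8, 0 higher for untreated ubp16, 6 and 2 for the interaction of ubp8 with WT, and 5 and 3 for that of ubp16.

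Leaving out each library in turn gave 6 to 8 higher and 10 to 21 lower in WT, 8 to 18 and 4 to 7 in ubp8, and 4 to 7 and 5 to 15 in ubp16. It gave 0 to 1 and 6 to 32 for untreated ubp8, 1 to 4 and 0 to 0 for untreated ubp16, 2 to 3 and 4 to 6 for treated ubp8, and 10 to 14 and 2 to 7 for treated ubp16. For the interactions it gave 1 to 18 and 0 to 2 for ubp8 with WT, 5 to 7 and 2 to 7 for ubp16 with WT, and 1 to 4 and 5 to 17 between the mutants.

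Deviations of libraries with the same replicate number correlated at 0.11 in WT, 0.18 in ubp8 and 0.14 in ubp16 between untreated and treated, and at -0.09 to 0.19 over all pairs of groups. With 2 libraries per group and no label that ties the numbers to a shared culture or day, whether they pair the libraries is not settled. With the replicate block the counts were 8 and 19 in WT, 24 and 5 in ubp8, 7 and 18 in ubp16, and 17 and 2 for the interaction of ubp8 with WT. Of 1153 alternative values for 95 named results, 976 kept direction and call, 177 lost the call and 0 reversed. With 2 libraries per group, small changes are poorly resolved.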
